A study of Mus musculus with 6 samples.

Results

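The MHC class II presentation genes described here are 8 mouse genes chosen by name out of the 55446 genes in the authors' deposited table: H2-Aa, H2-Ab1, H2-Eb1, H2-DMa, H2-DMb1, H2-DMb2, Cd74 and Ciita. The authors tested 7 of the 8 genes for a difference between their conditions TMX and con, and H2-DMb2 was left untested for low signal, by its status. Total RNA came from crypts of the ileum, the distal small intestine, of 3 Adar iΔgut mice and 3 Adar fl/fl mice. Both genotypes carried floxed Adar alleles and were given tamoxifen, and the labels put the time at day 3. Adar iΔgut mice also carried the VilCreERt2 transgene, a tamoxifen-activated Cre recombinase under the villin promoter, which acts in the intestinal epithelium and not in the immune or stromal cells of the mucosa. ADAR edits adenosine to inosine within double-stranded RNA. The sources used here do not give strain, age or sex.

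MHC class II molecules carry peptides from the endolysosomal pathway to the cell surface, where CD4+ T cells read them. Dendritic cells, B cells and macrophages make them constitutively, and the epithelium of the small intestine makes them when interferon-gamma and the microbiota are present. An alpha and a beta chain form the peptide-binding molecule, the invariant chain Cd74 guards its groove, and the DM heterodimer exchanges the last invariant chain fragment for peptide. Transcription of all these genes depends on CIITA, a coactivator that binds no DNA itself and is recruited by the RFX, CREB and NF-Y factors that sit on the X and Y boxes of class II promoters.

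The table holds 1 pooled level per condition for each gene, in FPKM, which is fragments counted relative to transcript length and to all fragments sequenced. No value per library was used here, so a level has no standard deviation, the depth is unknown, and differences were judged by the p-value and q-value of the authors' test, with a call at a q under 0.05. The table names its conditions TMX and con but gives no genotype for them. TMX was read as Adar iΔgut and con as Adar fl/fl by elimination, and every direction is that of the condition labelled TMX. Adar itself was at 52.0 FPKM in TMX and 19.5 FPKM in con with q = 0.0575 in the authors' deposited table, which is not a lower level in TMX and goes against that reading. The sources used here do not name the floxed exons, and reads from exons outside them still add to this FPKM.

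The promoters of 4 of the 8 genes are shown first because they carry the boxes through which CIITA acts. RefSeq promoter windows of 250 bases before and 50 bases after a gene's start (build GRCm38.p6) were at hand for 5 of the 8 genes, H2-Aa, H2-Eb1, H2-DMa, H2-DMb1 and H2-DMb2. Capitals mark the letters searched. The first run is AACNGATGATGCT, as part of the X box, or TGACGTCA, a CREB-type X2 box, and the second is TGATTGG, which holds the inverted CCAAT core of the Y box. AACNGATGATGCT is the longest run before the Y box that the H2-Eb1, H2-DMb1 and H2-DMb2 windows share with 1 position free, so its presence there is by choice.
H2-Aa, chr17:34287847-34287917, minus strand: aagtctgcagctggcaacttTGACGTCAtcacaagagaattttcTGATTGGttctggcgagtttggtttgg
H2-Eb1, chr17:34305758-34305832, plus strand: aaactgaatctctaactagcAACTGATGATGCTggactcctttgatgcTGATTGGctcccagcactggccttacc
H2-DMb1, chr17:34153079-34153154, plus strand: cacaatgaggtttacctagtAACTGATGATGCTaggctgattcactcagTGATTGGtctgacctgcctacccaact
H2-DMb2, chr17:34145108-34145183, plus strand: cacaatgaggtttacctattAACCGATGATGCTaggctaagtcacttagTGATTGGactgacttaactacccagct

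In these 4 windows the letters of the X box and of the Y box were 15 or 16 bases apart, and the Y box began 50 to 92 bases before the start. The windows of H2-DMb1 and H2-DMb2 were identical at 66 of 76 bases. On either strand, TGATTGG was found in 7.82% of 32851 RefSeq promoter windows of the same length, AACNGATGATGCT in 0.0152% and TGACGTCA in 1.79%. The 3 motifs do not overlap in the windows shown. Either X box motif followed by the Y box on the gene's strand, with at most 40 bases between them, was found in 10 of 27025 genes, or 0.0370%, and 4 of the 10 are the genes shown. Both windows listed for H2-DMa held none of the letters. The windows of H2-Oa, H2-Ob and H2-Eb2, class II genes outside the 8, held TGATTGG but not the pair.

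All 7 tested class II genes were lower in TMX and were called by the authors, against a background of 5.70% of 15762 tested genes called lower. Among the 3923 tested genes whose con level was at least that of the lowest of the 7 tested class II genes, 14.3% were called lower. The levels of the 7 genes in TMX were 5.27% to 12.9% of those in con. Their log2 fold changes, computed with 1 FPKM added to each level, ran from -3.66 to -2.72 with a median of -3.03, while the median over all tested genes was 0.05. In a bulk sample, fewer cells that express these genes and less RNA per cell cannot be told apart.

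**Figure D1:**
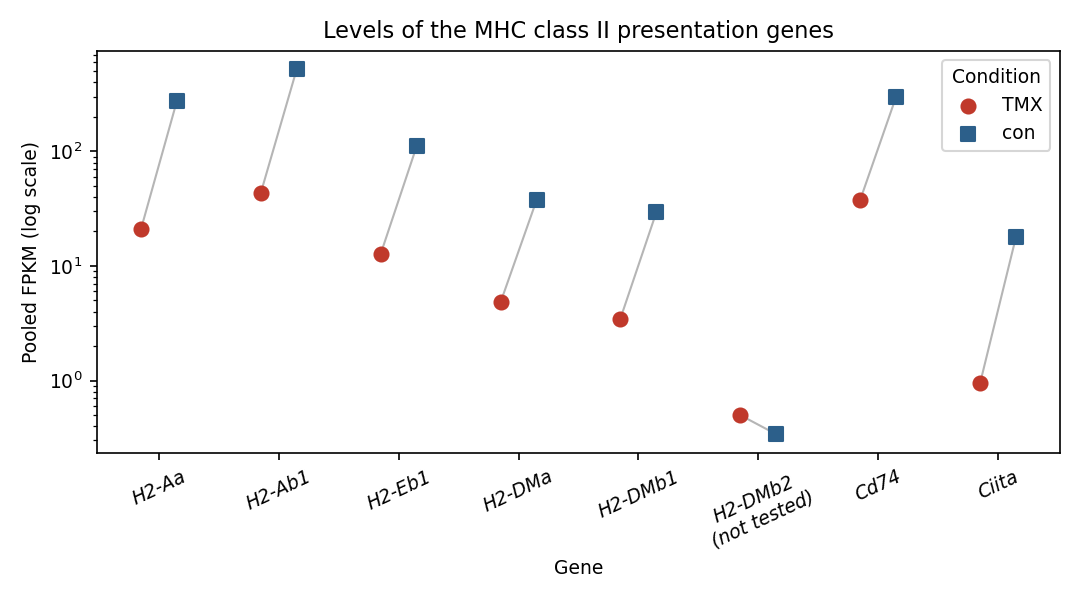
Pooled FPKM (log axis) of each of the 8 genes in TMX (red circles) and con (blue squares), 1 value per condition and so no error bars. The 7 tested genes lay between 0.945 and 43.5 FPKM in TMX and between 17.9 and 524 FPKM in con, and H2-DMb2 was under 1 FPKM in both.

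H2-Ab1 had the highest level of the 8 genes in TMX and in con. H2-Ab1 encodes the beta chain of the I-A molecule and lies on chromosome 17 of GRCm38 from 34257689 to 34269419, plus strand. It was listed at 43.5 FPKM in TMX and 524 FPKM in con in the authors' deposited table, which is 12.0-fold lower in TMX by the plain ratio of levels. Its partner H2-Aa, the I-A alpha chain (chromosome 17, 34282744 to 34287823, minus strand), was at 20.9 FPKM in TMX and 276 FPKM in con in the authors' deposited table, 13.2-fold lower in TMX. H2-Aa had the lowest log2 fold change of the 7 genes, -3.66, followed by H2-Ab1 at -3.56. Both had p = 5e-05 and q = 0.00112, the lowest values in the authors' deposited table, which 704 genes share.

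The level of H2-Aa was 0.481 times that of H2-Ab1 in TMX and 0.527 times in con, so the 2 chains of I-A kept a similar ratio of FPKM. H2-Eb1 encodes the beta chain of the I-E molecule (chromosome 17, 34305867 to 34316674, plus strand). The authors' deposited table listed it at 12.7 FPKM in TMX and 111 FPKM in con, with a log2 fold change of -3.03 and q = 0.00112. H2-Eb1 was 8.72-fold lower in TMX, and its level relative to H2-Ab1 was 0.293 in TMX and 0.212 in con. The I-E alpha chain gene is annotated as a polymorphic pseudogene, H2-Ea-ps, since mice of some strains, among them C57BL/6, do not transcribe it. It was listed at 0 in TMX and in con in the authors' deposited table. A second beta chain gene, H2-Eb2, was at 0.135 FPKM in TMX and 0.127 FPKM in con in the authors' deposited table and was not tested.

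Cd74, the invariant chain gene on chromosome 18 (60803848 to 60812652, plus strand), fell with the chains although it lies outside the MHC. The authors' deposited table gave 37.7 FPKM in TMX and 300.3 FPKM in con, a log2 fold change of -2.96 and q = 0.00112. Cd74 was 7.97-fold lower in TMX, a smaller plain fold than those of H2-Aa and H2-Ab1. Its level relative to H2-Ab1 was therefore 0.866 in TMX and 0.573 in con. Whether these ratios differ between mice was not tested, since only pooled levels were at hand.

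The DM genes encode the peptide exchange factor of the loading compartment. H2-DMa, its alpha chain (chromosome 17, 34119541 to 34139101, plus strand), was at 4.82 FPKM in TMX and 37.4 FPKM in con, at p = 0.00065 and q = 0.00897 in the authors' deposited table. H2-DMb1, a beta chain (chromosome 17, 34153072 to 34160230, plus strand), was at 3.48 FPKM in TMX and 29.5 FPKM in con with q = 0.00112 in the authors' deposited table. The falls were 7.77-fold for H2-DMa and 8.49-fold for H2-DMb1, the smallest and the third smallest of the 7 genes. The alpha chain was at 1.39 times the level of H2-DMb1 in TMX and 1.27 times in con.

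H2-DMb2, the other beta chain gene (chromosome 17, 34143307 to 34151555, plus strand), was near the lower end of detection in both conditions. The authors' deposited table listed it at 0.499 FPKM in TMX and 0.340 FPKM in con, without a test. Its promoter window holds the X and Y box letters, like that of H2-DMb1, whereas its level in con was far below the 29.5 FPKM that the authors' deposited table gives for H2-DMb1. The 2 genes share sequence: of the stretches of 50 bases in H2-DMb1 transcripts 22.7% also occur in H2-DMb2, so the split of reads between them is less certain. H2-Oa and H2-Ob encode DO, an inhibitor of DM found mainly in B cells. H2-Ob was at 2.05 FPKM in TMX and 1.79 FPKM in con with q = 0.946, and H2-Oa at 0.496 FPKM in TMX and 0.348 FPKM in con without a test, in the authors' deposited table.

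Ciita, which encodes the coactivator CIITA (chromosome 16, 10480059 to 10528418, plus strand), had the largest plain fold of the 7 genes. It was listed at 0.945 FPKM in TMX and 17.9 FPKM in con in the authors' deposited table, 19.0-fold lower in TMX. Its log2 fold change with 1 FPKM added was -3.28, with q = 0.00112 in the authors' deposited table. The added 1 FPKM is larger than its level in TMX, so that scale understates its fall more than that of the abundant chains. Relative to H2-Ab1, the level of Ciita was 0.0217 in TMX and 0.0342 in con. Ciita has several promoters that serve different cell types, and a gene-level FPKM does not separate them.

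Some of the genes share a merged locus with another gene, which makes their levels less certain, because the sources used here do not say whether reads kept their strand. H2-DMa overlaps Brd2, a gene on the opposite strand at 99.0 FPKM in TMX and 72.4 FPKM in con in the authors' deposited table, and 8.43% of the stretches of 50 bases in H2-DMa transcripts occur in Brd2 transcripts on one strand or the other. Ciita overlaps Dexi on the opposite strand, at 1.12 FPKM in TMX and 2.74 FPKM in con in the authors' deposited table, and shares 1.46% of such stretches with it. H2-Eb1 overlaps the antisense gene Gm20513, listed at 0 in TMX and at 0.613 FPKM in con in the authors' deposited table, and shares none. H2-Ab1 and Cd74 shared none with any other gene, and H2-Aa shared 0.514% with others.

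**Figure D2:**
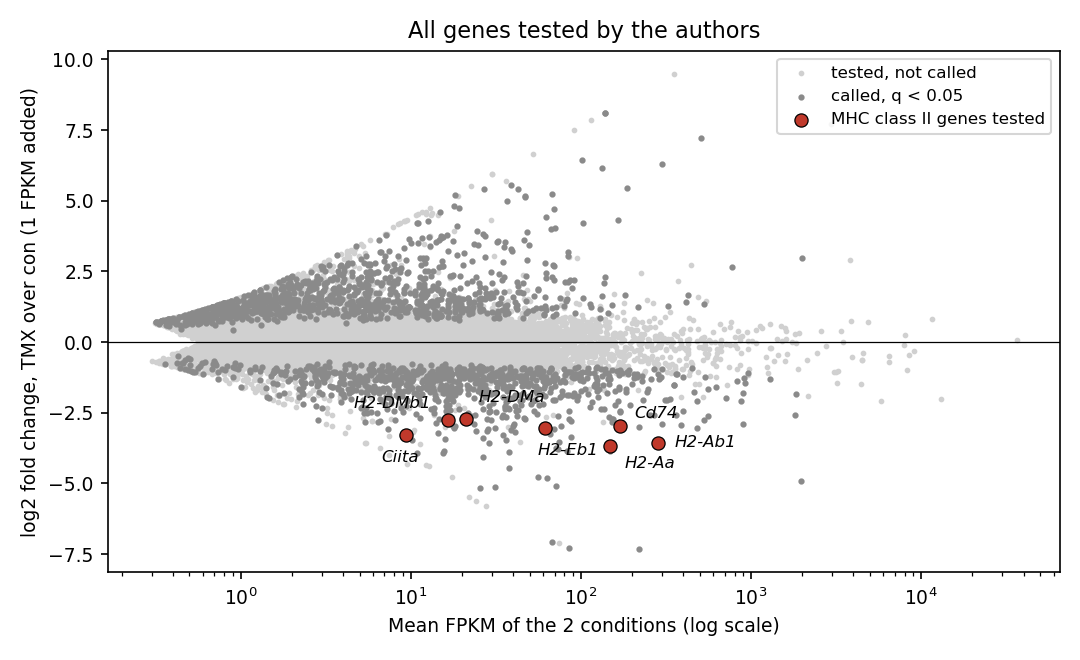
Log2 fold change of TMX over con with 1 FPKM added (y axis) against the mean FPKM of the 2 conditions (log x axis) for the 15762 tested genes, with genes called at a q under 0.05 in dark grey. The 7 tested class II genes (red) lie from -3.66 to -2.72, across low and high mean levels.

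Ranked from the lowest log2 fold change among the 15762 tested genes, H2-Aa was at rank 30, H2-Ab1 at 34, Ciita at 44, H2-Eb1 at 62, Cd74 at 72, H2-DMb1 at 90 and H2-DMa at 98. All 7 were thus within the lowest 0.622% of tested genes. Of the 98 tested genes that lay as low as H2-DMa or lower, the authors called 72. The summed level of the 7 genes was 124 FPKM in TMX and 1296 FPKM in con, or 0.0232% of the summed FPKM of tested genes in TMX and 0.208% in con. By level, H2-Ab1 was at rank 1562 of the tested genes in TMX and at rank 147 in con.

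The class II genes on chromosome 17 lie among genes of other kinds, and those neighbours were compared by position. From the first base of H2-K1 (33996017) to the last base of Btnl2 (34369495), 18 of 37 annotated genes were tested, 5 of them class II genes named above. Of the other 13, the authors called 1 lower and none higher, while at an unadjusted p under 0.05 there was 1 in each direction. Over all tested genes 5.70% were called lower and 6.60% higher. The gene called lower was Btnl2, a butyrophilin-like gene of the intestinal epithelium, at 13.7 FPKM in TMX and 30.0 FPKM in con with q = 0.00613 in the authors' deposited table. The log2 fold changes of the 12 genes that were not called ran from -0.69 to 0.56.

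Between H2-DMb1 and H2-Ab1 lie 4 tested genes of class I peptide processing and H2-Ob. Psmb9 and Psmb8, immunoproteasome subunits, had log2 fold changes of -0.47 and -0.69 with q-values of 0.822 and 0.360 in the authors' deposited table. Tap1 and Tap2, the peptide transporter of the endoplasmic reticulum, had log2 fold changes of 0.38 and -0.24 with q-values of 0.710 and 0.917 in the authors' deposited table. Psmb9 and Tap1 lie in 1 merged locus, as do Psmb8 and Tap2, so their levels are less certain. Called class II genes flank on both sides a stretch of genes that were not called. A q-value above the threshold does not show that these genes were equal in the conditions.

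**Figure D3:**
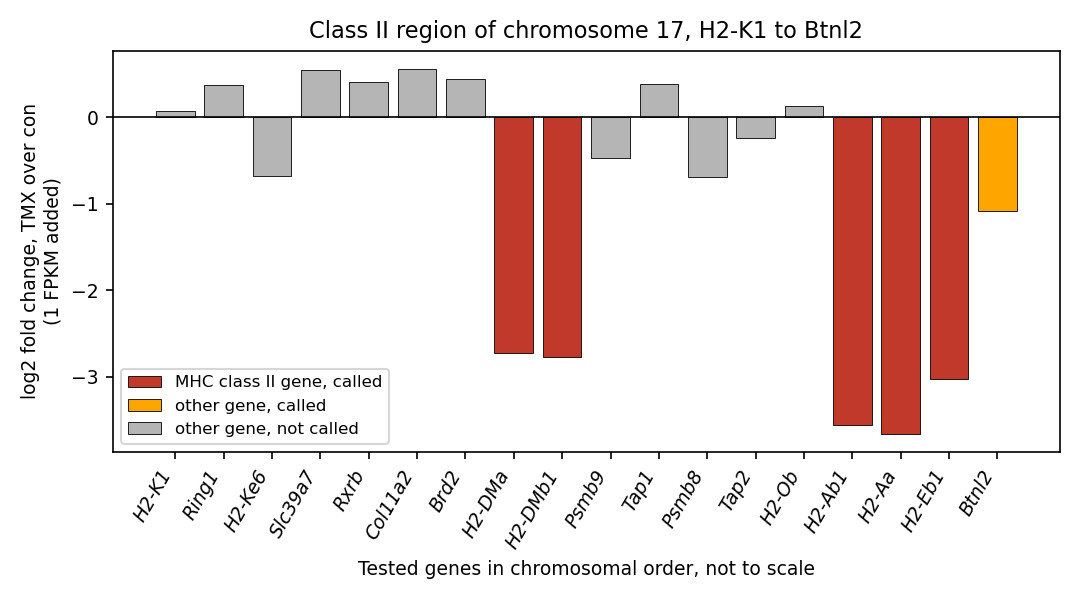
Log2 fold change of TMX over con with 1 FPKM added (bars) for the 18 tested genes from H2-K1 to Btnl2, in their order on chromosome 17 and not to scale. The 5 class II genes (red) lie between -3.66 and -2.72, Btnl2 (orange) was the other called gene, and the 12 genes in grey were not called.

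Of the factors that hold CIITA on class II promoters, none was called. The 7 tested genes were the RFX subunits, the NF-Y subunits and Creb1, with a median log2 fold change of -0.01, and none was higher or lower at an unadjusted p under 0.05. Creb1, which encodes the X2 box factor, was at 24.0 FPKM in TMX and 21.7 FPKM in con with q = 0.919 in the authors' deposited table. Nfyb was at 9.88 FPKM in TMX and 14.0 FPKM in con with q = 0.565 in the authors' deposited table. The X box subunit Rfx5 was at 5.74 FPKM in TMX and 4.23 FPKM in con with q = 0.564 in the authors' deposited table.

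Interferon-gamma induces Ciita through its receptor, the kinases JAK1 and JAK2, and IRF1. Of 10 tested genes on the list of Ciita inducers and repressors, 2 were called lower and none higher. Of all tested genes 5.70% were called lower, and of those with a con level at least that of Ciita 14.3%. The count called lower was 1, Ifngr2, at a q under 0.01 and with all listed p-values adjusted together. Ifngr2, the signalling subunit of the receptor, fell 4.48-fold to 6.37 FPKM in TMX, against 28.5 FPKM in con, with q = 0.00112 in the authors' deposited table. Irf1 fell to 59.8 FPKM in TMX, against 132 FPKM in con, with q = 0.0307 in the authors' deposited table. The ligand-binding subunit Ifngr1 was at 59.8 FPKM in TMX and 62.3 FPKM in con with q = 0.967 in the authors' deposited table. The gene of the cytokine, Ifng, was at 0.0355 FPKM in TMX and 0.467 FPKM in con in the authors' deposited table and had no test. Prdm1, a repressor of Ciita in plasma cells, was at 2.79 FPKM in TMX and 2.72 FPKM in con with q = 0.978 in the authors' deposited table.

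Genes of the endolysosomal compartment, where proteases prepare antigen and trim the invariant chain, were called in both directions. Of 10 tested endolysosomal genes, 3 were called higher and 1 lower, against 6.60% of all tested genes called higher and 5.70% called lower. Ctsl, which encodes cathepsin L, rose to 85.8 FPKM in TMX, against 10.7 FPKM in con, with q = 0.00112 in the authors' deposited table. Ctsh, or cathepsin H, rose to 95.1 FPKM in TMX, against 40.3 FPKM in con, with q = 0.00897 in the authors' deposited table. Lgmn, an asparagine-specific protease, rose to 36.9 FPKM in TMX, against 16.1 FPKM in con, with q = 0.0131 in the authors' deposited table.

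The endolysosomal gene that fell was Lamp1, a lysosomal membrane protein, at 54.3 FPKM in TMX and 115 FPKM in con with q = 0.0478 in the authors' deposited table. Ctss, whose product cathepsin S cuts the invariant chain in dendritic cells and B cells, was at 107 FPKM in TMX and 122 FPKM in con with q = 0.841 in the authors' deposited table. Lamp2 was at 64.6 FPKM in TMX and 106 FPKM in con with q = 0.157 in the authors' deposited table.

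Of 3 tested genes of class II turnover, 1 was called higher and none lower, against 6.60% of all tested genes called higher. March1, a ubiquitin ligase that marks surface class II for degradation, rose to 2.27 FPKM in TMX, against 0.321 FPKM in con, with q = 0.00112 in the authors' deposited table. Its relative March8 was at 19.2 FPKM in TMX and 35.2 FPKM in con with q = 0.411, and Cd83, which opposes March1, at 0.658 FPKM in TMX and 1.11 FPKM in con with q = 0.552, in the authors' deposited table. Of 5 tested costimulatory ligands, 2 were called higher and none lower, against the same 6.60%. Cd40 rose to 24.9 FPKM in TMX, against 0.317 FPKM in con, with q = 0.00112, and Cd86 to 1.39 FPKM in TMX, against 0.242 FPKM in con, with q = 0.0136, in the authors' deposited table. Cd274, or PD-L1, was at 6.30 FPKM in TMX and 5.68 FPKM in con with q = 0.893 in the authors' deposited table. Icosl was at 1.83 FPKM in TMX and 2.30 FPKM in con with q = 0.801 in the authors' deposited table.

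Of 14 tested genes of the class I pathway, none was called, while at an unadjusted p under 0.05 there were 1 higher and 2 lower. Their median log2 fold change was -0.40, while that of the 7 class II genes was -3.03. H2-K1, a class I heavy chain, was at 684 FPKM in TMX and 649.6 FPKM in con with q = 0.967 in the authors' deposited table. The light chain gene B2m was at 1296 FPKM in TMX and 2487 FPKM in con with q = 0.213 in the authors' deposited table. Nlrc5, the relative of CIITA that acts on class I promoters, was at 43.5 FPKM in TMX and 19.2 FPKM in con with q = 0.0595 in the authors' deposited table. The 2 coactivator genes thus had log2 fold changes of opposite sign, -3.28 for Ciita and 1.14 for Nlrc5, of which that of Ciita was called.

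**Figure D4:**
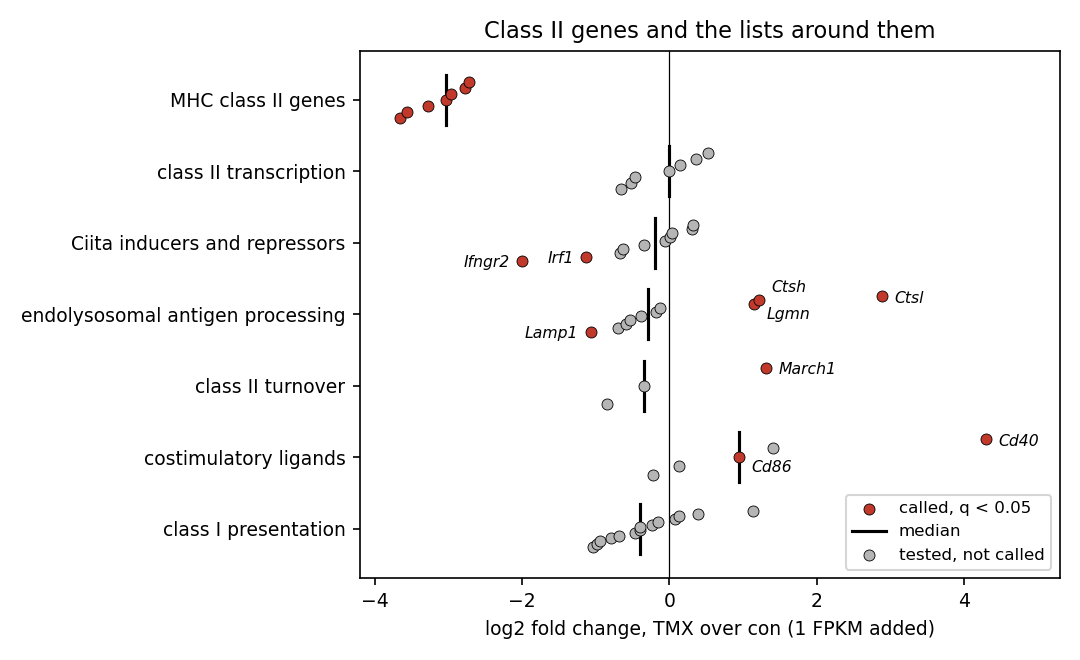
Log2 fold change of TMX over con with 1 FPKM added for each tested gene of the class II set and of 6 lists around it (points, called genes in red and others in grey), with list medians as black bars. The class II genes lie at -2.72 and below, whereas list medians range from -0.40 to 0.94.

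Cells other than the epithelium express class II genes, so their markers are given beside the class II values. Of 10 dendritic cell markers, 4 were tested and none was called, with 1 higher at an unadjusted p under 0.05. Of the 4 tested, 3 had a log2 fold change above 0 and 1, Irf8, below 0, with a median of 0.70. The summed level of the 10 was 30.0 FPKM in TMX and 44.1 FPKM in con, and 7 of the 10 were under 1 FPKM in each condition. Irf8, which other cells also express, made up most of these sums, at 19.4 FPKM in TMX and 41.0 FPKM in con with q = 0.577 in the authors' deposited table. Zbtb46, Flt3 and Xcr1, markers on this list that were picked after their values were seen, were not tested. They were at 0.585, 0.324 and 0 FPKM in TMX and at 0.204, 0.150 and 0.0299 FPKM in con in the authors' deposited table. Sirpa was the marker higher at an unadjusted p under 0.05. Its levels were 5.18 FPKM in TMX and 1.14 FPKM in con, with q = 0.0979 in the authors' deposited table.

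Of 10 B and plasma cell markers, 6 were tested and none was called, again with 1 higher at an unadjusted p under 0.05. Their summed level was 22.6 FPKM in TMX and 19.1 FPKM in con, most of it from Jchain, a plasma cell product, at 18.0 FPKM in TMX and 10.8 FPKM in con with q = 0.171 in the authors' deposited table. The B cell gene Ms4a1, also picked after its values were seen, was at 0.725 FPKM in TMX and 2.25 FPKM in con in the authors' deposited table. None of the B cell or dendritic cell markers was listed at 0 in con. In con, H2-Ab1 was at 524 FPKM and these markers at most at 41.0 FPKM, the level of Irf8, in the authors' deposited table. Levels of different genes do not compare numbers of cells, and the part of dendritic and B cells in the class II values was not tested.

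Macrophage and monocyte markers went in the direction opposite to class II. Of 10 tested, 7 were called higher and none lower, against 6.60% of all tested genes called higher. The summed level of the list of 11 was 179 FPKM in TMX and 7.88 FPKM in con, most of it from Lyz2. Lyz2, or lysozyme 2, rose to 135 FPKM in TMX, against 4.20 FPKM in con, and Mrc1, the mannose receptor, to 5.68 FPKM in TMX, against 0.570 FPKM in con, with q = 0.00112 each in the authors' deposited table. Ccr2, a chemokine receptor of monocytes, rose to 3.31 FPKM in TMX, against 0.264 FPKM in con, with q = 0.00281 in the authors' deposited table. Of 6 tested neutrophil markers, 3 were called higher and none lower, against the same 6.60%. The summed level over the list of 8 neutrophil markers was 217 FPKM in TMX and 0.593 FPKM in con. Most of the TMX sum came from S100a8 and S100a9, calcium-binding proteins of neutrophils, at 104 and 72.1 FPKM in TMX and 0.0559 and 0.402 FPKM in con. Neither was called, with q-values of 0.547 and 0.553 in the authors' deposited table, and both are named after their values were seen.

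The neutrophil markers called were Ly6g, Cxcr2 and Ngp. The count was 1 among genes of mean FPKM at least 1, and 2 at a q under 0.01 or with all listed p-values adjusted together. Ly6g and Ngp were at 36.2 and 0.730 FPKM in TMX and listed at 0 in con, with q-values of 0.00112 and 0.00897 in the authors' deposited table. Cxcr2, a chemokine receptor, rose to 1.68 FPKM in TMX, against 0.0585 FPKM in con, with q = 0.0163 in the authors' deposited table. Elane, a gene of early neutrophil precursors, was listed at 0 in TMX and in con in the authors' deposited table. Monocytes and macrophages express class II genes, and how much of the remaining 43.5 FPKM of H2-Ab1 in TMX in the authors' deposited table came from them was not tested.

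T and NK cell markers moved in the same direction as class II. Of 11 tested, 5 were called lower and none higher, and all 11 had a log2 fold change below 0, with a median of -1.04. Of all tested genes 5.70% were called lower. The count was 2 at a q under 0.01 and 3 with all listed p-values adjusted together. Their summed level was 56.9 FPKM in TMX and 341 FPKM in con, most of it from the granule protease gene Gzma. Gzma fell to 40.4 FPKM in TMX, against 270.3 FPKM in con, and Gzmb to 3.40 FPKM in TMX, against 33.2 FPKM in con, with q = 0.00112 each in the authors' deposited table. Cd3g, a subunit of the T cell receptor complex, fell to 2.29 FPKM in TMX, against 8.77 FPKM in con, with q = 0.0105 in the authors' deposited table. Activated T and NK cells are sources of interferon-gamma, and the part of these cells in the class II values was not tested.

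Of 3 tested innate lymphoid cell markers, 2 were called lower and none higher, against 5.70% of all tested genes called lower. One of them, Kit, a receptor tyrosine kinase gene that mast cells and other cells also express, was at 1.88 FPKM in TMX and 9.17 FPKM in con with q = 0.00112 in the authors' deposited table. Il22, a defining cytokine, was listed at 0 in TMX and at 0.0655 FPKM in con in the authors' deposited table. T cell genes for proteins that bind class II (Cd4, Lag3) or costimulatory ligands (Cd28, Ctla4, Icos) gave little signal. All 5 were under 1 FPKM in each condition. The 1 tested, Ctla4, was at 0.715 FPKM in TMX and 0.253 FPKM in con with q = 0.628, and Cd4 was at 0.549 FPKM in TMX and 0.473 FPKM in con, in the authors' deposited table.

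**Figure D5:**
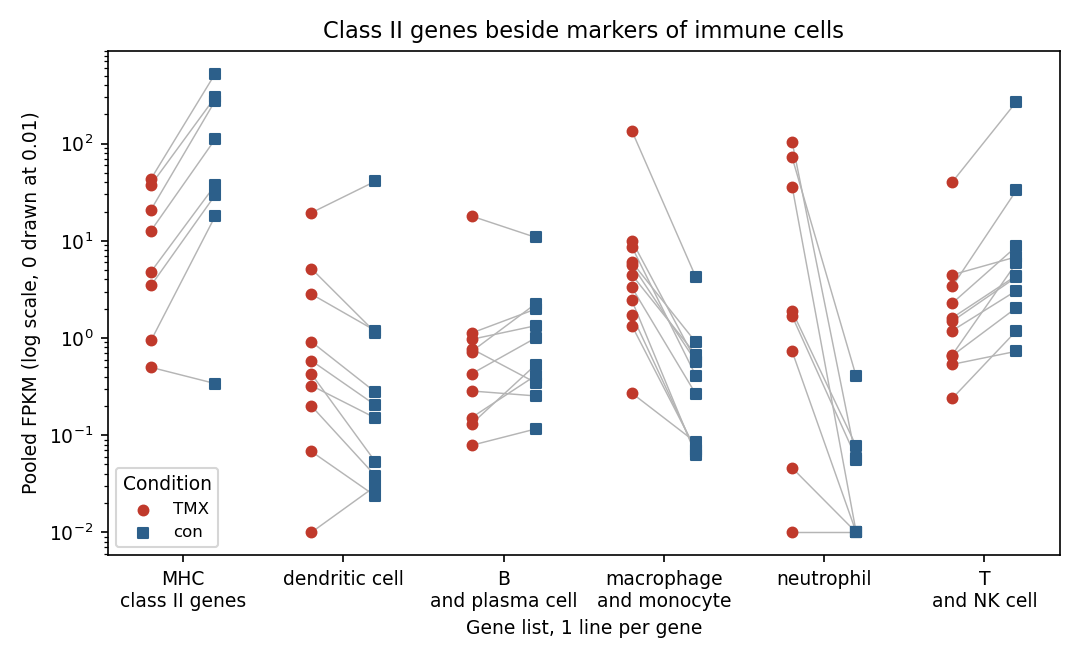
Pooled FPKM (log axis, 0 drawn at 0.01) of the 8 class II genes and of 5 immune cell marker lists in TMX (red circles, left) and con (blue squares, right), 1 line per gene. Class II genes other than H2-DMb2 and all T and NK cell markers have their lower point in TMX, macrophage markers and neutrophil markers other than Elane have their higher point in TMX, and most dendritic cell and B cell markers lie under 3 FPKM.

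The epithelial part of the sample also differed between the conditions. Of 8 tested epithelial markers, none was called lower, although 4 were lower at an unadjusted p under 0.05, and 1 was called higher. It was Krt18, a keratin gene, at 162 FPKM in TMX and 68.0 FPKM in con with q = 0.00281 in the authors' deposited table. The log2 fold change was above 0 for Krt18 and below 0 for the other 7, with a median of -0.74 over the 8. Of all tested genes 6.60% were called higher. Of 10 tested enterocyte markers, 5 were called lower and none higher, with a median log2 fold change of -1.99. The share called lower was 5.70% over all tested genes and 14.3% over those with a con level at least that of Ciita. Lct, or lactase, fell to 0.479 FPKM in TMX, against 21.4 FPKM in con, and Alpi, intestinal alkaline phosphatase, to 11.6 FPKM in TMX, against 80.5 FPKM in con, with q = 0.00112 each in the authors' deposited table. Apoa1, the apolipoprotein A-I gene, fell to 521 FPKM in TMX, against 3099 FPKM in con, with q = 0.00488 in the authors' deposited table.

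Among 8 tested crypt stem cell markers, 2 were called lower and none higher, against 5.70% of all tested genes called lower. The log2 fold change was above 0 for 3 of the 8 and below 0 for 5, with a median of -0.43. Olfm4 fell to 18.2 FPKM in TMX, against 277 FPKM in con, with q = 0.00112, and Slc12a2, an ion cotransporter, to 25.4 FPKM in TMX, against 54.2 FPKM in con, with q = 0.0176, in the authors' deposited table. The fall of the class II genes thus stood beside falls of enterocyte, T and NK cell and some stem cell genes, and the part of each in the class II values was not tested.

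The 5 called protein-coding genes outside the class II set whose log2 fold change lay nearest to -3.03, and whose con level was within the range of the 7 tested genes, were Fmo5, Mcpt1, Slc15a1, Mcpt2 and Pdzk1. This likeness rests on 2 pooled conditions and 584 candidate genes. Fmo5, a flavin monooxygenase, was at 6.04 FPKM in TMX and 56.2 FPKM in con in the authors' deposited table. Slc15a1, the peptide transporter of the brush border, was at 48.2 FPKM in TMX and 390.0 FPKM in con, and Pdzk1, a scaffold protein of the apical membrane, at 5.23 FPKM in TMX and 51.5 FPKM in con, in the authors' deposited table. Mcpt1 and Mcpt2, proteases of mucosal mast cells, were at 3.13 and 3.23 FPKM in TMX and at 32.9 and 32.4 FPKM in con in the authors' deposited table.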

How the data were processed

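Total RNA of 6 ileal crypt libraries was summarised by the authors in 1 comparison table. The authors used STAR and Cufflinks with GRCm38, per the submitters' processing notes, whose versions were not given. Per the file headers, the deposited table gives FPKM for con and TMX, a log2 fold change, a test statistic (a score), a p-value and a q-value. The deposited log2 fold change equalled log2 of TMX plus 1 over con plus 1, and the deposited q-value equalled a Benjamini-Hochberg adjustment over the 15762 genes with status OK. Gene positions and 27 symbols that differed were taken from GENCODE vM21 by identifier, and all 55446 identifiers matched. None of the 8 genes had the status for excess data.

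The design planned the authors' own test for a table without values per library, and no new test was made. Computed here were plain ratios, log2 fold changes, ranks, counts of calls and list medians. The adjustment was tested on simulated data. The 8 genes and the lists were chosen with earlier results of these data known. Genes named were the 8, called genes of the lists, up to 3 per marker list, the 2 uncalled genes of highest mean FPKM per pathway list, called genes of the chromosome 17 region and the 5 genes of most similar fold change; any others named were chosen after their values were seen. Some genes that this rule takes are not reported here. That all libraries entered the authors' test is not stated, and its p-values measure only the spread among the libraries it used. Alternatives were 2 pseudocounts, 2 scalings, 2 sets of genes for the adjustment and a q under 0.01. Tables were handled in pandas 2.3.3 and numpy 2.4.6 (Python 3.11.15), and plots drawn in matplotlib 3.10.9. RefSeq promoter windows and GENCODE vM21 transcripts were searched as text.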

Additional observations from a re-analysis of the deposited data

How the results depend on the processing

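The pseudocounts and scalings leave the authors' q-values as they are and cannot end a call. The 7 tested class II genes were called lower under the 3 alternatives that bear on calls: genes of mean FPKM at least 1, all listed p-values adjusted together, and a q under 0.01. Their median log2 fold change was -3.03 with 1 FPKM added, -3.11 with 0.1 FPKM, -3.12 with 0.01 FPKM, -2.82 with TMX scaled to equal summed FPKM of tested genes and -3.03 with TMX scaled by the median ratio of tested genes above 1 FPKM in both conditions, a shift of 0.000677 on the log2 scale. Scaling to equal sums moved the median of all tested genes to 0.23. In the pathway lists 3 genes outside the class II set were called lower, and 1 was, Ifngr2, both at a q under 0.01 and when all genes with a listed p-value were adjusted together; Irf1 and Lamp1 lost their calls there. Under the same pair of settings T and NK cell markers called lower numbered 2 and 3, against 5, and crypt stem cell markers called lower 1, against 2. Costimulatory ligands called higher numbered 1, against 2, at a q under 0.01 and with mean FPKM at least 1, where neutrophil markers called higher numbered 2 and 1, against 3. Of 47 called genes named or listed, none changed direction, 10 lost their call at a q under 0.01 and 7 with all listed p-values. Leaving out replicates was not run. No paired analysis was possible because the table holds no value per library. Depth is unknown, so genes under 1 FPKM, H2-DMb2 among them, set no limit on a difference.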

Other observations

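Besides the 4 class II genes, 6 genes had the letters of the X box and the Y box in the same order within their RefSeq promoter window. Dusp8 and Ift57 were called higher in TMX, with log2 fold changes of 1.48 and 1.65, and Ints7, Prkar1a, Rpl13 and Thada were not called, with log2 fold changes from 0.15 to 0.84, in the authors' deposited table. None of the 6 was lower in TMX by its log2 fold change.

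The authors' test statistic for H2-DMa was -1.01, nearer to 0 than those of the other 6 tested class II genes, which lay at -3.44 or lower. Of 1142 genes with a p-value as low as that of H2-DMa in the authors' deposited table, 20 had a test statistic as near to 0.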
